A study of Mus musculus with 4 samples.

Results

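The genes described here are 10 transcription factors of the core and naive pluripotency network of mouse embryonic stem (ES) cells, namely Pou5f1, Nanog, Esrrb, Zfp42, Tbx3, Tfcp2l1, Nr0b1, Nr5a2, Prdm14 and Sall4. The SOX and KLF factors of the network were not among them. They were found by gene symbol: 22 of the 45101 probe sets on the array carried 1 of these symbols and no other. A probe set is a group of short probes read out as 1 intensity. Of the 22 probe sets, 18 were bright enough to be tested, and every one of the 10 genes had at least 1 among them. Both group means of all 18 lay over the brightness floor (an intensity of about 10.4), so none was tested only because 1 genotype was bright.

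Total RNA was compared between wildtype ES cells and ES cells labelled SOCS3 null, with 2 arrays for each genotype. SOCS3 is the inhibitor that restrains signalling from the receptor for leukemia inhibitory factor (LIF) through JAK kinases to STAT3. The labels also name endoderm, the phosphatase SHP2 and ERK1/2 as key words. The submitters' labels do not state strain, clone, passage, LIF dose or time in culture. Whether the arrays of a genotype stand for separate cultures is not stated either. The p-values set the difference between genotypes against the spread of arrays within a genotype, and that spread may be technical variation only.

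As background, mouse ES cells are held in the naive state by a small circuit of transcription factors that activate each other's genes. POU5F1 (OCT4) with SOX2 forms its core, NANOG and ESRRB stabilise it, and LIF feeds into it through STAT3, which activates Klf4 and Tfcp2l1, while Tbx3 is reached mainly through another arm of LIF signalling. PRDM14 holds down genes of the later, primed epiblast, and SALL4 and TBX3 are also used in the extraembryonic endoderm, the lineage that forms beside the epiblast in the early embryo.

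The members moved in both directions. In SOCS3-null cells the T-box factor Tbx3 was 3.54-fold and the CP2 family factor Tfcp2l1 2.39-fold as bright as in wildtype. Prdm14 fell to 28.4%, the nuclear receptor gene Nr0b1 to 38.1% and the nuclear receptor gene Nr5a2 to 51.8% of the wildtype mean, each on its brightest probe set. Pou5f1 stood at 99.5% of its wildtype mean. Zfp42 stood at 33.4% of its wildtype mean, but its SOCS3-null arrays differed widely from each other and it did not pass the test. Among the 18 probe sets tested, 4 rose, 5 fell and 9 did not pass limma's test at an adjusted p under 0.05. Those calls make up 50% of the members' probe sets, where 15.9% of all 27022 probe sets tested were called, 8.55% higher and 7.30% lower. They come from 6 of the 10 genes. The genes were chosen with earlier results of these data known, and the share over all was not matched for brightness. The shares are therefore given as description only. Counted as genes by their brightest probe set, 2 of the 10 rose, 3 fell and the other 5 did not pass, where 22.7% of 12732 genes were called, 13.1% higher and 9.55% lower. The median log2 change was -0.39 over the 18 probe sets, and over the 10 genes it was -0.39 as well, against 0.00 over all genes tested.

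The groups did not overlap on 15 of the 18 probe sets, 11 of them lower and 4 higher in SOCS3-null cells. Over all probe sets tested the groups were apart on 62.0%, lower on 34.8% and higher on 27.2%. With 2 arrays against 2, an exact permutation test of a single gene cannot give a two-sided p below 0.333, so all calls rest on limma's pooling of the spread over probe sets. They also need all 4 arrays. Without any 1 of them, wildtype replicate 1 or 2 or SOCS3-null replicate 1 or 2, limma called 0 of the 18 and 0 of all probe sets, and the lowest adjusted p of a member was 0.0834. At an unadjusted p under 0.05 those fits still held 10 to 13 of the members' probe sets and 5699 to 8535 of all.

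**Figure D1:**
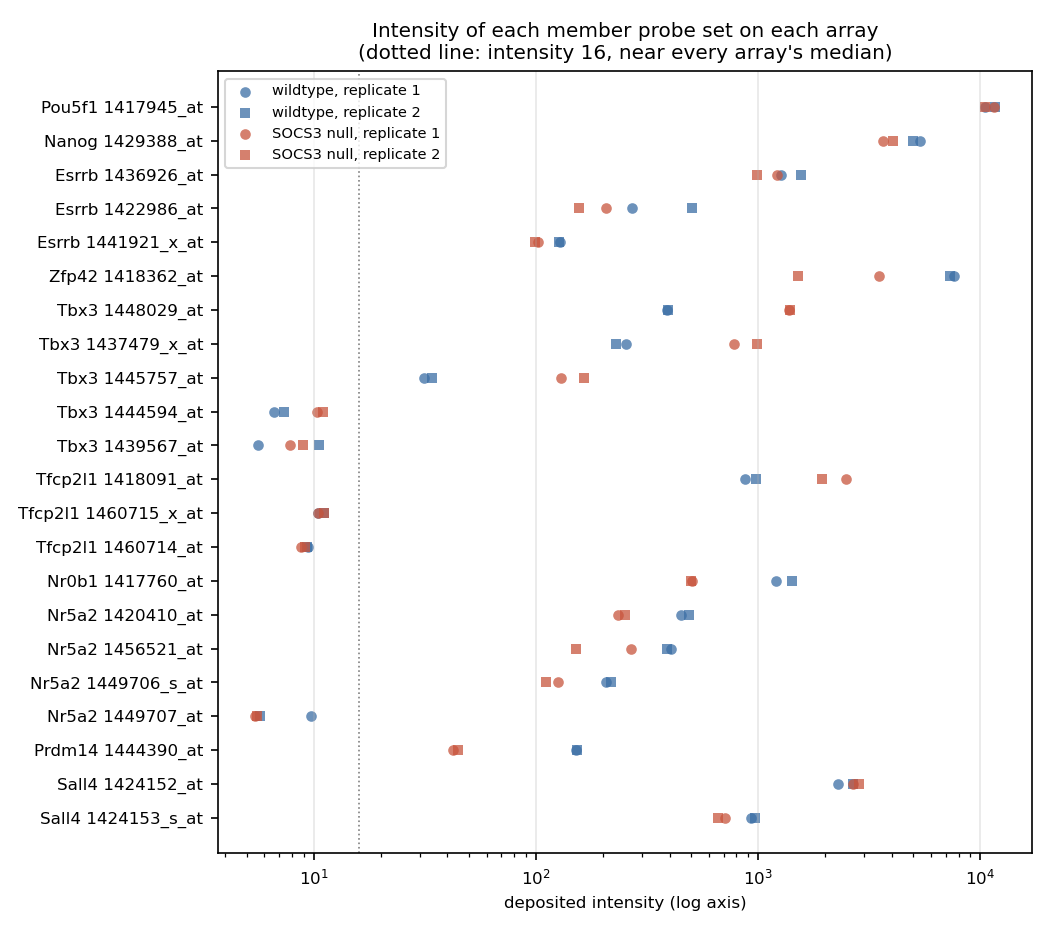
Deposited intensity (log axis) of the 22 probe sets of the 10 genes on each array; blue marks wildtype, red SOCS3 null, circles replicate 1 and squares replicate 2. The Tbx3 probe set 1448029_at lies at 390 and 392 in wildtype against 1375 and 1391 in SOCS3 null, while the Pou5f1 points lie on top of each other between 10524 and 11675.

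Socs3 itself checks the labels. Its brightest probe set read 3024 and 1884 in wildtype against 19.3 and 12.9 in SOCS3-null cells. The latter values are near the array medians, which were 15.8 or a little higher. Its probe set 1456212_x_at read 1018 and 708 in wildtype against 12.6 and 14.7 in SOCS3-null cells. On 1416576_at the values were 518 and 391 against 10.7 and 9.71. Which part of the gene was removed is not given, so whether these probes lie inside it is not known. The arrays' lower quartiles lay between 6.92 and 7.22 and their upper quartiles between 115 and 120. ES cell identity was checked with 11 markers that are no members: their summed intensity was 69907 and 69723 in wildtype against 60355 and 57029 in SOCS3-null cells. The 2 brightest markers made up 62.6 to 70.4% of these sums. Of the 11, 5 fell and 6 did not pass, and their median log2 change was -0.43.

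Markers of another lineage moved with the genotype. The summed intensity of 14 primitive endoderm markers was 3115 and 3575 in wildtype against 57107 and 59806 in SOCS3-null cells. All 14 rose, with a median log2 change of 4.70; 3 of them, Sox17 and Gata4 among these, lay below the brightness floor in wildtype and were tested only because the SOCS3-null arrays were bright, so the size of their change rests on background. The transcription factor Gata6 went from 20.0 and 9.25 to 1356 and 943, Sox17 from 4.51 and 4.08 to 605 and 685, and Gata4 from 7.99 and 12.5 to 536 and 743. Cubn, an endocytic receptor, and the growth factor receptor gene Pdgfra rose by 6.95 and 5.23. In wildtype Cubn read 16.5 and 8.28 and Pdgfra 18.7 and 23.5. These values and those of Gata6 lay near or below the array medians, so the sizes of these changes also rest largely on background. In RNA from a whole culture, fewer cells of a type and less RNA per cell cannot be told apart, and the part of endoderm RNA in any change below was not tested. Of 11 fibroblast markers 10 were tested and 0 were called by limma, with 1 higher and 0 lower at an unadjusted p under 0.05. Their RNA was nonetheless present on every array, with sums from 2515 to 4787. The 2 brightest made up 71.6 to 74.1% of these sums. Which cells this RNA came from was not tested.

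Pou5f1 encodes OCT4, the POU factor without which the inner cell mass does not stay pluripotent. Its intensity was 10524 and 11675 in wildtype against 11567 and 10524 in SOCS3-null cells. The groups overlapped fully, and wildtype replicate 1 and SOCS3-null replicate 2 hold the very same deposited value. The log2 change was -0.01 (SE 0.10, limma adjusted p = 0.974), with a 95% interval from -0.29 to 0.28, or from 81.6% to 121% of the wildtype level on the log2(intensity + 16) scale. The sign of so small a value has no meaning: it turned to 0.03 after quantile normalization. Equal values are common in the deposited table, where 1271 to 3383 probe sets hold the same value in a given pair of arrays. Mouse Pou5f1 and Nanog have processed pseudogenes, and probes that match them cannot be told apart from the gene here.

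Nanog, the homeobox factor that stabilises self-renewal, was at 5341 and 4973 in wildtype and at 3646 and 4050 in cells without SOCS3. Both SOCS3-null arrays lay below both wildtype arrays. The means were 5157 ± 260 and 3848 ± 286 (SD, n = 2), or 74.6%. The log2 change of -0.42 (SE 0.09, 95% interval -0.69 to -0.15) had a limma adjusted p of 0.0657 and did not pass. Over the alternatives the change kept its sign (-0.50 to -0.35). In the alternative fits by probe set with no array left out, limma's adjusted p ran from 0.0555 to 0.139. It passed only when each gene was represented by the mean of its probe sets (limma adjusted p = 0.0480). Nanog has 1 probe set, so its own values and its change of -0.42 were the same there. What differed was the values of other genes and an adjustment over 12732 genes.

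Zfp42 (also called REX1) is a zinc finger gene used as a marker of naive ES cells. It was at 7657 and 7324 in wildtype and at 3502 and 1509 in cells without SOCS3. The wildtype arrays were close together, while SOCS3-null replicate 1 was 2.32-fold as bright as replicate 2. The means were 7491 ± 236 and 2505 ± 1409 (SD, n = 2). The log2 change was -1.70 (SE 0.45, 95% interval -2.98 to -0.41, limma adjusted p = 0.0896). With SOCS3-null replicate 1 left out it was -2.30 and with replicate 2 left out -1.09. The adjusted p was 0.0278 with the brightness filter at the 60th percentile, and 0.0278 to 0.382 over all alternatives. A decrease at least as large was seen for 0.836% of the probe sets tested.

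The proximal promoters of Nanog, Zfp42 and Esrrb are shown as examples of windows that hold the letters of sites for factors of the circuit itself. The RefSeq table (GRCm38.p6) had windows for 7 of the 10 genes, and the 250 bases before each start were searched on both strands. Searched were ATGCAAAT (octamer, POU factors), CATTGT (SOX factors), TTCNNNGAA (STAT factors), TCAAGGTCA (ESRRB and NR5A2), AAGGTCA (other orphan nuclear receptors, contained in the former), AGATAA (factors of the GATA family) and GGGTGTGG (KLF factors). After the Nanog window was seen, a joined octamer and SOX site was added: TTTGCAT, then any base, then ACAATG, which contains the SOX letters read on the other strand. Capitals mark the matches, and each line runs 5′ to 3′ on the gene's strand and ends at the base before the start.
Nanog, chr6:122707239-122707488, plus strand: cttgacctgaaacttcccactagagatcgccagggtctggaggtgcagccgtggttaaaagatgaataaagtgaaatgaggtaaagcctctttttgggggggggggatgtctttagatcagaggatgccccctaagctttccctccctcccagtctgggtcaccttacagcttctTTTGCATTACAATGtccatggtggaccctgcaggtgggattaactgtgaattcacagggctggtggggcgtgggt
Zfp42, chr8:43307010-43307259, minus strand: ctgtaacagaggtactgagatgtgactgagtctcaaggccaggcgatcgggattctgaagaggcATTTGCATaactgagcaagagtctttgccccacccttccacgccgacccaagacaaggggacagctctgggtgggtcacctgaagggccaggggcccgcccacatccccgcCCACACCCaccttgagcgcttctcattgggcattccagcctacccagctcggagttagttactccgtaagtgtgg
Esrrb, chr12:86360867-86361116, plus strand: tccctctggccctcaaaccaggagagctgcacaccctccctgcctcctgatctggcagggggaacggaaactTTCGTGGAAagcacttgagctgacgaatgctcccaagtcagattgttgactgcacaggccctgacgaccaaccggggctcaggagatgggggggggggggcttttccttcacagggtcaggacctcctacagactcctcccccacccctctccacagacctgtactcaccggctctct
The joined octamer and SOX letters lie 75 to 62 bases before the first Nanog start. Of 32851 windows 2 hold them. Both are windows of Nanog that overlap and share this 1 site. The letters were written after the Nanog window was seen, so a match there was fixed in advance. The octamer of Zfp42 lies 186 to 179 bases before the start, and 1.6% of all windows hold an octamer. Its KLF letters lie 75 to 68 bases before the start, and 3.2% of all windows hold them. The STAT letters of Esrrb lie 178 to 170 bases before the start, and 7.02% of all windows hold such letters. Elsewhere, a Nr5a2 window held 2 GATA matches and a Pou5f1 window 1 SOX match, which 9.99% and 10.7% of all windows hold. The nuclear receptor letters were in no window of these genes; 0.387% of all windows hold the longer and 4.08% the shorter form. The windows of Tfcp2l1 and Nr0b1 held none of the motifs, and neither did the other window of Esrrb, Nr5a2 or Pou5f1. A match describes letters only, and no binding was measured.

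Of the 3 nuclear receptor genes, Nr0b1 and Nr5a2 fell and Esrrb did not pass. Nr0b1 (DAX1), a receptor without the usual DNA-binding domain that binds other factors, was at 1210 and 1423 in wildtype and at 504 and 500 in cells without SOCS3. The SOCS3-null arrays were nearly equal and far below both wildtype arrays. The log2 change was -1.36 (SE 0.11, limma adjusted p = 0.0129), and -1.47 to -1.24 with any 1 array left out.

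Nr5a2 (LRH-1), a receptor that binds the Pou5f1 promoter, was read by 4 probe sets. The brightest, 1420410_at, was at 451 and 487 in wildtype and at 234 and 252 in cells without SOCS3. The probe set 1449706_s_at was at 208 and 218 against 126 and 111. On both, all SOCS3-null values lay below all wildtype values. They fell by 0.90 (SE 0.09, adjusted p = 0.0157) and 0.77 (SE 0.09, adjusted p = 0.0229) on the log2 scale in limma's fit. Without the brightness filter 1449706_s_at did not pass (adjusted p = 0.0581). The probe set 1456521_at had a change of the same size, -0.92, but its SOCS3-null arrays stood at 267 and 152 and it did not pass (adjusted p = 0.121; 0.0499 with the filter at the 60th percentile). The last probe set, 1449707_at, at 5.42 to 9.70, was too dim to be tested.

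Esrrb, a receptor that binds DNA beside OCT4 and can stand in for NANOG, was lower on all 3 of its probe sets and passed on none. The probe set 1436926_at was at 1276 and 1568 in wildtype and at 1218 and 989 in cells without SOCS3. The probe set 1422986_at was at 271 and 503 against 206 and 156. The probe set 1441921_x_at was at 129 and 127 against 102 and 99.3. None of the 3 had overlapping groups, yet the first 2 varied within a genotype nearly as much as between genotypes. The log2 changes were -0.36, -0.98 and -0.31, with limma adjusted p of 0.238, 0.154 and 0.0638. The 95% intervals ran from -0.84 to 0.12, from -1.98 to 0.02 and from -0.50 to -0.11. The probe set 1441921_x_at passed without the brightness filter (0.0379) and with a pseudocount of 64 (0.0456; range over its alternatives 0.0379 to 0.227). By the array maker's naming, a probe set ending in _x_at may also bind other sequences.

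**Figure D2:**
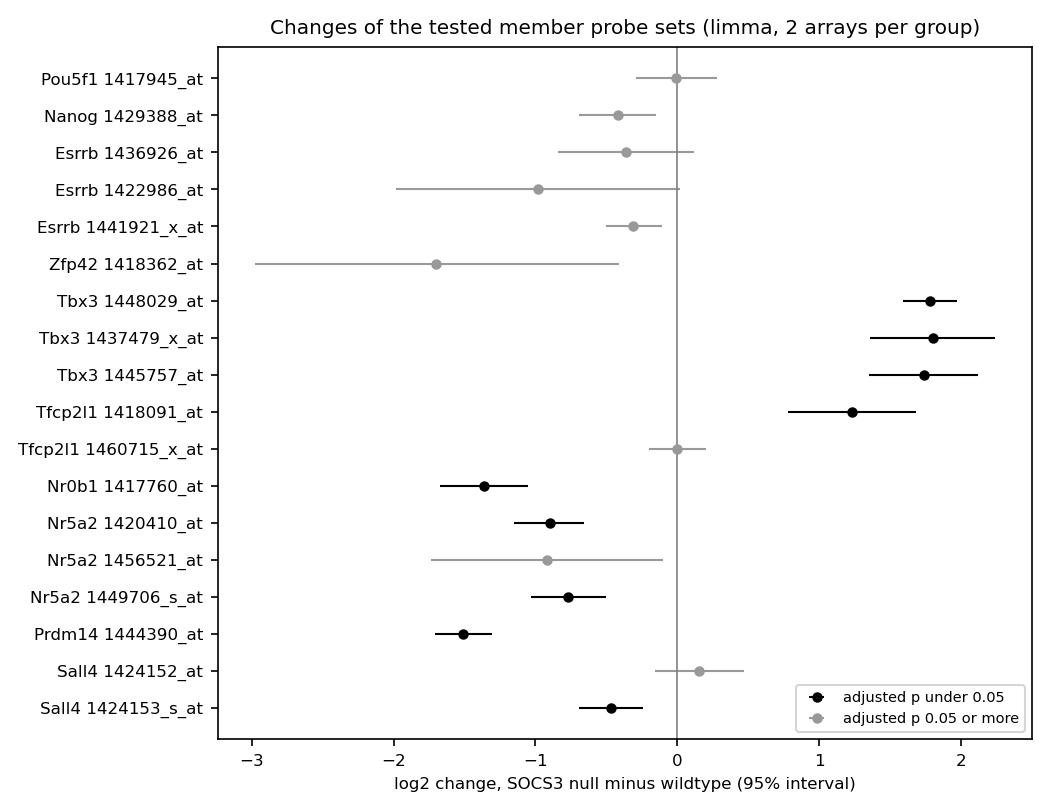
Log2 change (SOCS3 null minus wildtype, 2 arrays each) of the 18 probe sets tested, with 95% intervals from limma; black points passed at an adjusted p under 0.05 and grey points did not. The 3 Tbx3 probe sets lie together between 1.74 and 1.80, and the interval of Zfp42 runs from -2.98 to -0.41.

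Tbx3 and Tfcp2l1 were the members that rose. Tbx3 encodes a T-box factor that supports self-renewal and, when forced up, can drive ES cells toward extraembryonic endoderm. Its probe set 1448029_at was at 390 and 392 in wildtype and at 1375 and 1391 in cells without SOCS3. The probe set 1437479_x_at was at 254 and 229 against 779 and 994. The dimmer 1445757_at was at 31.3 and 34.1 against 130 and 165. On each, both SOCS3-null arrays were well above both wildtype arrays. The log2 changes were 1.78 (SE 0.07), 1.80 (SE 0.15) and 1.74 (SE 0.13), with limma adjusted p of 0.00791, 0.0140 and 0.0124. Without the brightness filter 1437479_x_at did not pass (adjusted p = 0.0514). With any 1 array left out the first was 1.77 to 1.79. The change of 1445757_at was 2.13 with a pseudocount of 1 and 1.12 with one of 64. Its size, and so its closeness to the others, depends on the pseudocount. Of all probe sets in the fit 1.44% had an increase at least as large as that of 1448029_at. The remaining Tbx3 probe sets, 1444594_at and 1439567_at, held 5.62 to 11.0 on all arrays and were too dim to be tested.

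Tfcp2l1, a CP2 family factor activated by STAT3 that can maintain naive cells, was at 875 and 979 in wildtype and at 2481 and 1942 in cells without SOCS3 on 1418091_at. Both SOCS3-null arrays lay above both wildtype arrays. The log2 change was 1.23 (SE 0.16, 95% interval 0.78 to 1.68, limma adjusted p = 0.0251), and 1.06 to 1.41 with any 1 array left out. Without the brightness filter it did not pass (adjusted p = 0.0837). Its other probe sets, 1460715_x_at at 10.4 to 11.1 and 1460714_at at 8.80 to 9.41, lay below the array medians in both genotypes. The first of these was tested and had a log2 change of 0.00. Klf4, the other STAT3 target named above, chosen after its values were seen, was at 1801 and 1614 in wildtype and at 1178 and 2411 in cells without SOCS3. Its groups overlapped, and its log2 change was -0.02 (95% interval -1.08 to 1.05, limma adjusted p = 0.983 over genes).

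Prdm14, a PR domain protein that restrains FGF receptor genes and the de novo DNA methyltransferases, fell. Its single probe set was at 152 and 154 in wildtype and at 42.4 and 44.6 in cells without SOCS3. The arrays of each genotype were close together. The log2 change was -1.51 (SE 0.07, limma adjusted p = 0.00859). It ran from -1.79 with a pseudocount of 1 to -1.01 with one of 64, so its size depends on the pseudocount.

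Sall4, a zinc finger factor that works with OCT4 and NANOG and is also active in extraembryonic endoderm, gave different answers on its probe sets. The brighter 1424152_at was at 2290 and 2676 in wildtype and at 2676 and 2842 in cells without SOCS3. The other, 1424153_s_at, was at 931 and 973 against 708 and 661. The groups met on the first and were apart on the second. The first had a log2 change of 0.15 (SE 0.11, adjusted p = 0.415) and the second fell by 0.47 (SE 0.08, limma adjusted p = 0.0402). The difference between the 2 probe sets on the log2 scale was 1.28 and 1.44 in wildtype against 1.89 and 2.08 in SOCS3-null cells. That is a shift of 0.62 between genotypes, with an exact two-sided permutation p of 0.333, the smallest that 4 arrays allow. The fall of the second did not pass with a pseudocount of 1 (adjusted p = 0.0596), without the filter (0.0650) or with a robust trend (0.0514). No direction is therefore given for Sall4 as a gene.

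**Figure D3:**
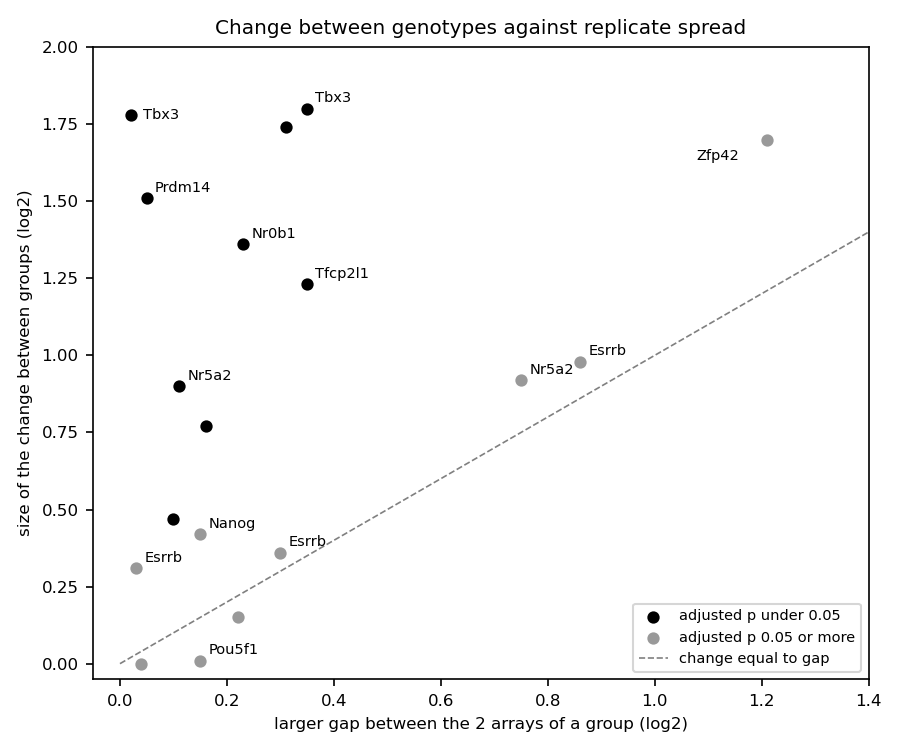
Size of the log2 change between genotypes against the larger of the within-genotype gaps between arrays, for the 18 probe sets tested; black points passed limma's test, and the dashed line marks a change equal to the gap. Tbx3 and Prdm14 lie far above the line. Zfp42, with a log2 change of -1.70 and a gap of 1.21, lies above it too but closer to it than they do.

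The replicate spread was not the same for all members. On 12 of the 18 probe sets the SOCS3-null arrays differed more than the wildtype arrays. The share of all probe sets with such a difference was not counted. Taken over all probe sets tested, the SOCS3-null arrays were also less alike (Pearson correlation of log2 values 0.988) than the wildtype arrays (0.995). The widest gaps between SOCS3-null arrays were 1.21 on the log2 scale for Zfp42 and 0.75 for Nr5a2 probe set 1456521_at, both lower on replicate 2. Genes outside the set went both ways on that array: of the 19 further network factors 7 were higher there than on replicate 1, and of the 21 activated genes described below 7 were. Chosen after their values were seen, Gdf3 (547 and 260) and Klf2 (477 and 211) were lower on replicate 2, while Klf4 (1178 and 2411) and Dppa3 (73.2 and 167) were higher. On that array the 10 trophoblast markers summed to 687, against 395 on SOCS3-null replicate 1 and 225 and 195 in wildtype. All 10 were higher there than on replicate 1, some of them only at background. The 2 brightest made up 27.7 to 62.1% of these sums, and 3 of the 10 lay below the array median on every array. The 11 fibroblast markers summed to 2515 and 4240 in wildtype against 4787 and 2935 in SOCS3-null cells, and all were lower on SOCS3-null replicate 2 than on replicate 1. The part of these differences in the Zfp42 and Nr5a2 spread was not tested. Tbx3 on 1448029_at, Nr0b1 and Prdm14 differed by 0.05 or less between the SOCS3-null arrays.

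Other genes of the circuit were read by their brightest probe set. The list counts below stand beside 22.7% of all 12732 genes called, 13.1% higher and 9.55% lower. Of 19 further transcription factors of the network 2 rose, 7 fell and 10 did not pass, with a median log2 change of -0.49. The falls numbered 2 without the brightness filter, 3 with the replicate number as a block and 4 with a pseudocount of 64. Klf5, a factor of the naive state, rose by 0.92 from 2452 and 2827 to 4938 and 5045, and the ETS factor Etv4 rose by 0.70. Klf2 had the largest fall (-2.14), from 1294 and 1648 to 477 and 211. Sall1, a paralogue of Sall4, changed by -1.40 and Rex2, a gene distinct from Zfp42 (REX1), by -1.36, both falls that passed. Sox2, the partner of OCT4, fell from 6372 and 7099 to 2825 and 3940, a log2 change of -1.01 (SE 0.20, limma adjusted p = 0.0385 over genes).

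Of 24 chromatin proteins and cofactors that work with the members 1 rose, 6 fell and 17 did not pass, with a median of -0.24. Among all genes tested 22.7% were called, 13.1% higher and 9.55% lower. The gene that rose was Mta2 (0.60), a subunit of the NuRD remodelling complex; with the replicate block 0 rose. Cbfa2t2, a corepressor that binds PRDM14, changed by -1.04, from 470 and 460 to 217 and 218 (limma adjusted p = 0.00769). The NuRD subunit Mbd3 changed by -0.80 and Rif1, a telomere and replication timing factor, by -0.74.

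Of 21 genes known to be activated by OCT4, NANOG, ESRRB or their partners 1 rose, 9 fell and 11 did not pass, with a median of -0.80. The falls numbered 2 without the brightness filter and 5 with the replicate block. Lefty1, an antagonist of Nodal, fell from 850 and 1598 to 64.2 and 19.5 (log2 change -4.47). Dppa3, a maternal factor that protects DNA methylation, and the Polycomb gene Phc1 fell too, with changes of -3.10 and -2.50. Trim8 was the gene that rose (0.74). The ES cell markers outside the members are mostly the same genes: 10 of the 11, and all 5 that fell, belong to the activated genes or the further factors already counted. None of the 11 rose (1 at an unadjusted limma p under 0.05). The falls numbered 0 without the brightness filter and 2 with either the replicate block or a pseudocount of 64. Gdf3, Fgf4 and Sox2 changed by -1.74, -1.29 and -1.01, and L1td1 and Dppa4, named because the count was small, by -0.84 and -0.64.

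Genes that the members are known to hold down were mixed. Of 14 tested, 8 rose, 2 fell and 4 did not pass (median 0.92). Without the brightness filter 5 rose. Of the 8, 4 belong to the primitive endoderm markers above, Gata6, Sox17 and Gata4 among them, and 1 to the trophoblast genes, and both that fell are also formative epiblast genes. Sox17 and Gata4 are the 2 of the 14 that lay below the floor in wildtype. Of genes that PRDM14 restrains, the methyltransferase gene Dnmt3a fell (-1.91), its relative Dnmt3b differed by 0.14 (adjusted p = 0.565), and the FGF receptor genes Fgfr1 and Fgfr2 differed by 0.28 and 0.58 (adjusted p of 0.160 and 0.0970). Dnmt3l rose by 0.48; it and these genes were named after their values were seen, except Dnmt3a. The epiblast factor Otx2 was the other that fell (-2.92). Of 8 formative epiblast genes 6 fell and 0 rose (0 also at an unadjusted limma p under 0.05). Lef1 and Zic2, 2 of the 6, lay below the brightness floor in SOCS3-null cells and were tested only because wildtype was bright: Lef1, a nuclear partner of WNT signalling, went from 200 and 153 to 8.20 and 7.19. Among 8 trophoblast genes Tead4 (1.70) and Eomes (0.94) rose and 6 did not pass, where 13.1% of all genes were called higher. With a pseudocount of 64, 1 trophoblast gene rose. Among 3 mesoderm genes Snai1 rose by 2.19, and 7 of 8 mesoderm markers on the array lay below the array median on every array.

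**Figure D4:**
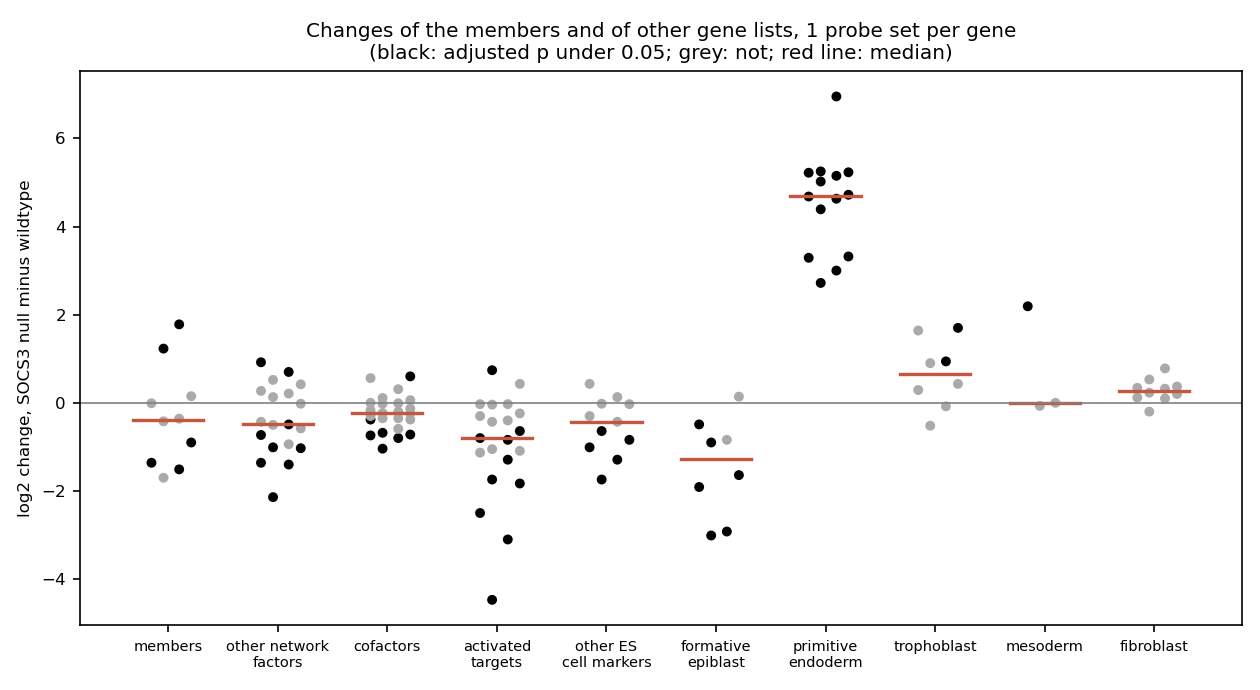
Log2 change (SOCS3 null minus wildtype) by gene, 1 probe set each, for the 10 members and 9 other gene lists; black points passed limma's test at an adjusted p under 0.05, grey points did not, and red lines are medians. The members spread around -0.39 on both sides of 0, while all 14 primitive endoderm genes lie above 2.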

How the data were processed

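Expression was measured on 4 arrays of 2 genotypes, grouped by the submitters' labels. The intensity values were used as deposited, on a linear scale; how the authors summarised and normalized them is not stated in the labels. Array medians differed little, so no further normalization was applied, and a change in total RNA per cell would not be seen. The low number of arrays sets the precision. Values were turned into log2(intensity + 16), which makes changes of dim genes look smaller, and fitted in R 4.3.3 with limma 3.58.1. After removal of 64 controls, the 27022 probe sets with a mean at or over the 40th percentile entered the fit, with genotype as its single term, with Benjamini-Hochberg adjustment over all of them, two-sided. For gene lists, the brightest probe set stood for its gene. Ratios and percentages of wildtype are of mean intensities. The platform annotation gave 34945 probe sets 1 symbol, 932 several and 9160 none.

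The members and lists were chosen with earlier results of these data known. Named beside the 10 members were Socs3, Sox2, Gata4, Gata6, Sox17 and, of each list, up to 3 called genes with the largest increase and 3 with the largest decrease; others are marked as chosen after their values were seen, or are the members of a small count, named after it was known. Proteins were not compared here. The procedure was tested on simulated data. Other settings tried were no brightness filter or one at the 60th percentile, a pseudocount of 1 or 64, median centring, quantile normalization, eBayes with a trend and a robust trend, a replicate block, gene summaries and leaving out each array. Figures were drawn with matplotlib 3.10.9.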

Additional observations from a re-analysis of the deposited data

How the results depend on the processing

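With the pseudocounts of 1 and 64, quantile normalization, median centring, both trend settings and the filter at the 60th percentile, the counts of called member probe sets stayed within 1.5 times of 4 higher and 5 lower. Without the brightness filter 2 member probe sets were called higher, and 1733 probe sets and 1631 genes in all. Leaving out any 1 array gave 0 calls by limma for members higher, members lower, all probe sets and all genes, where 2926 to 4731 genes had an unadjusted p under 0.05. Values that turned sign all belonged to changes that did not pass: Pou5f1 gave 0.03 after quantile normalization, 0.00 after median centring, and -0.08 to 0.07 with 1 array left out; the dim Tfcp2l1 probe set 1460715_x_at gave -0.02 to 0.02 with 1 array left out; and Sall4 1424152_at (0.15) gave -0.16 as the mean of its probe sets. The cause was not tested. The arrays of both genotypes are numbered 1 and 2, but nothing ties equal numbers together, and the deviations of equally numbered arrays correlated at -0.118. With the replicate number as a block 3 member probe sets were called lower, 1993 probe sets and 1914 genes in all, and Tfcp2l1 (adjusted p = 0.0563), Nr5a2 1449706_s_at (0.0609) and Sall4 1424153_s_at (0.103) did not pass. With the numbers crossed, a choice made after seeing the data, 4 member probe sets were called higher and 5 lower, and 3845 probe sets and 2817 genes in all. Dim probe sets near the array median have no usable change.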
